A study of Mus musculus with 24 samples.

Results

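Cholesterol synthesis genes were examined in the hippocampus of female mice with and without the stress co-chaperone FKBP51 in glutamatergic forebrain neurons. The 8 genes were taken by name from the deposited table of 46983 genes, and all 8 were among the 16209 genes with enough reads to be tested. Of these, 7 names stand for enzymes of the pathway, *Hmgcs1*, *Idi1*, *Fdps*, *Fdft1*, *Sqle*, *Lss* and *Dhcr7*, and *Insig1* encodes a regulator of it. No uptake receptor is among them.

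Bulk mRNA was sequenced from hippocampal punches of 24 adult females on a C57BL/6 background, 6 in each of 4 groups. Fkbp5lox/lox mice carry *Fkbp5* alleles flanked by loxP sites and no Cre recombinase, and served as wild types. Fkbp5Nex mice carry the same alleles together with Cre driven from the *Nex* locus (*Neurod6*), which deletes *Fkbp5* before birth in glutamatergic neurons of the forebrain, the dentate gyrus excepted. Litters of both genotypes were raised under limited bedding and nesting, an early life stress (ELS) paradigm, or under standard control conditions, and all of the mice later went through behavioural tests. The groups are called Fkbp5lox/lox control, Fkbp5lox/lox ELS, Fkbp5Nex control and Fkbp5Nex ELS, and mice are named by the numbers in the sample labels.

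Library totals ran from 18347283 to 26555623 counts. *Fkbp5* had 47.7 to 63.4 CPM (TMM-scaled counts-per-million) in the 12 Fkbp5lox/lox mice and 8.71 to 26.5 CPM in the 12 Fkbp5Nex mice, so that every library matched its genotype label. Markers of CA1 pyramidal neurons and dentate granule neurons were detected in every library. Their summed levels spanned 243.7 to 973.9 CPM and 228.1 to 1139.6 CPM. Summed choroid plexus markers ran from 19.3 to 4617 CPM over the mice, and summed thalamic markers from 66.0 to 444.6 CPM. In such bulk samples, fewer cells of a type and less RNA per cell cannot be told apart.

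Cholesterol is built from acetyl-CoA through mevalonate, isoprenoid diphosphates, squalene and lanosterol. The adult brain makes its own, because lipoproteins of the blood do not pass the blood-brain barrier, and both glia and neurons hold the enzymes. Most genes of the pathway are transcribed by SREBP2, which is held in the endoplasmic reticulum by SCAP and the INSIG proteins while sterols are plentiful and is released when they run low, so that the enzymes and *Insig1* are commonly seen to move together.

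The promoters are shown for 3 of the genes, because shared promoter elements are the usual route by which sterols set these genes in common. The sequences come from RefSeq (GRCm38.p6, plus strand, 5′ to 3′) and end before the annotated gene start. Capitals mark CACCCCAC (a form of the sterol regulatory element), CCAAT (the NF-Y element, ATTGG on the other strand) and CACGTG (an E-box). The stretches are chr13:119690101-119690350 for *Hmgcs1*, chr5:28071162-28071362 for *Insig1* and chr10:76531355-76531587 for *Lss*.

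Hmgcs1: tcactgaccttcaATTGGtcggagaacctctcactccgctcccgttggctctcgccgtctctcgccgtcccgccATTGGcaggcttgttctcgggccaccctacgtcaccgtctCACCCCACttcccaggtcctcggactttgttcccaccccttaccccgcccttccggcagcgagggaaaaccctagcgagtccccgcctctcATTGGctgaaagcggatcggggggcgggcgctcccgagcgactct

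Insig1: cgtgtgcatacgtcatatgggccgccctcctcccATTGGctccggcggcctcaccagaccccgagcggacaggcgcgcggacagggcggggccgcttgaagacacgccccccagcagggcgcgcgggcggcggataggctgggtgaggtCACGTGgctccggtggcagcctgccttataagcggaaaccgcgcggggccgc

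Lss: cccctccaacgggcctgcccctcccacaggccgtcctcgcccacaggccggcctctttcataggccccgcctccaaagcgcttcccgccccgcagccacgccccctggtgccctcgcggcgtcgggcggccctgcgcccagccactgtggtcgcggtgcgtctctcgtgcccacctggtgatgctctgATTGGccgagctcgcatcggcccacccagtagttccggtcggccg

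*Hmgcs1* holds the sterol regulatory element letters 136 bases before its RefSeq start, between its 3 copies of CCAAT. *Insig1* holds 1 CCAAT and 1 CACGTG, and *Lss* 1 CCAAT only. Windows of 250 bases before a RefSeq start were available for 5 of the 8 genes (*Idi1* and *Dhcr7* besides those shown), and both strands were searched. A gene was counted where any of its windows held the motif. *Dhcr7* had 3 windows, and the window at its annotated gene start held neither CCAAT nor CACGTG. Its CCAAT was only in a window from 143829964 and its CACGTG only in a window from 143823149, both inside the gene. CCAAT was in all 5, in 12 of 13 other enzymes of the pathway and in 37.5% of 27025 genes. CACCCCAC was in 1 of 5, in 1 of the 13 other enzymes (*Acat2*) and in 2.98% of all genes. CACGTG was in 2 of 5, in 2 of 13 and in 6.86%, and the Sp1 element GGGCGG was in 5 of 5, in 11 of 13 and in 35.4%. A match of letters describes the window and does not show a site in use.

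The genes differed widely in level. Per kilobase of exon, *Hmgcs1* was highest, with a median of 61.7 CPM per kb over the 24 mice, and its range of 47.5 to 97.6 lay above that of every other member. *Fdft1* (median 22.7 CPM per kb), *Insig1* (21.4) and *Sqle* (13.2) followed, and the ranges of neighbours in this order overlapped. *Idi1* (6.55 CPM per kb) and *Dhcr7* (6.15) could not be told apart either, and the lowest mouse for *Sqle* (10.3) was within the range of *Idi1*. *Lss* (3.43 CPM per kb) lay below *Dhcr7* without overlap, on an exonic length of 10787 bases that joins all annotated transcripts. Not scaled by length, the medians over the 24 mice were 37.0 CPM for *Lss* and 35.8 CPM for *Dhcr7*, and their ranges overlapped. *Fdps* was lowest by far, at 0.282 CPM per kb.

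**Figure D1:**
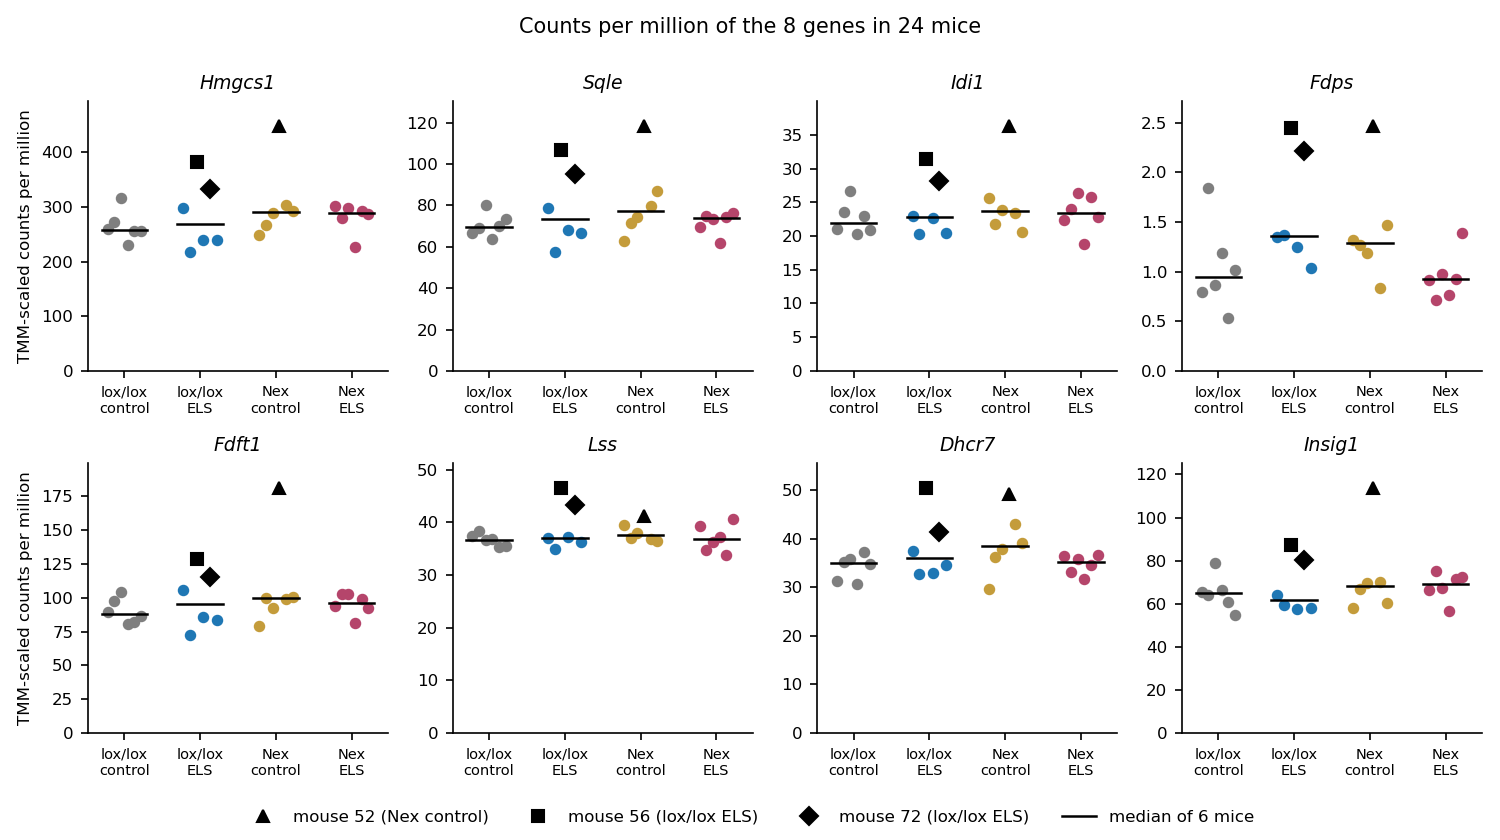
CPM (linear axes from 0) of the 8 genes in each of 24 mice, by group; each point is a mouse and the bar is the median of 6. The black symbols are mouse 52 (Fkbp5Nex control) and mice 56 and 72 (Fkbp5lox/lox ELS), which stand above most other mice for every gene. The medians of the groups lie close together except for those of *Fdps*.

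*Hmgcs1* encodes HMG-CoA synthase, which feeds mevalonate production. It was at 231 to 317 CPM (median 258) in Fkbp5lox/lox controls and 218 to 382 CPM (median 269) in Fkbp5lox/lox ELS mice. In Fkbp5Nex mice it was at 249.4 to 448 CPM (median 291) in controls and 226 to 302 CPM (median 289.8) after ELS. All 4 ranges overlapped, and the top of the scale was held by mouse 52 among the Fkbp5Nex controls and mouse 56 among the Fkbp5lox/lox ELS mice.

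*Idi1*, isopentenyl-diphosphate isomerase, supplies the activated isoprene unit. Its medians were between 21.98 and 23.7 CPM in all 4 groups, and its highest mice reached 36.3 CPM (mouse 52), 31.4 CPM (mouse 56) and 28.1 CPM (mouse 72). *Fdps*, farnesyl diphosphate synthase, makes the precursor of squalene. It had only 12 to 54 reads per mouse, so that counting error is large for this gene. It was at 0.531 to 1.84 CPM (median 0.942) in Fkbp5lox/lox controls and 1.03 to 2.45 CPM (median 1.36) in Fkbp5lox/lox ELS mice. In Fkbp5Nex mice the order was turned, with 0.839 to 2.47 CPM (median 1.29) in controls and 0.710 to 1.39 CPM (median 0.922) after ELS. *Fdps* was the member in which group medians differed most, and here too the ranges overlapped.

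*Fdft1*, squalene synthase, commits isoprenoids to sterols. It was at 80.3 to 104 CPM (median 87.8) in Fkbp5lox/lox controls and 72.3 to 129 CPM (median 95.5) in Fkbp5lox/lox ELS mice. In Fkbp5Nex mice it was at 79.2 to 181 CPM (median 99.6) in controls and 81.6 to 103 CPM (median 96.5) after ELS. The 181 CPM of mouse 52 was the highest of all 24 mice, and the next highest was the 129 CPM of mouse 56. *Sqle* encodes squalene epoxidase, a rate-limiting step of the sterol branch. Its group medians lay between 69.5 and 77.2 CPM, and its range was 63.9 to 80.4 CPM in Fkbp5lox/lox controls, 57.3 to 107 CPM in Fkbp5lox/lox ELS mice, 62.8 to 119 CPM in Fkbp5Nex controls and 61.7 to 76.6 CPM in Fkbp5Nex ELS mice.

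*Lss*, lanosterol synthase, closes the ring system and was the steadiest of the genes. Its within-group standard deviation (SD) was 0.11 on the log2 CPM scale, against a median of 0.18 over all tested genes, 0.46 for *Fdps* and 0.19 to 0.28 for the others. Its group medians were 36.7, 37.0, 37.5 and 36.7 CPM in the order Fkbp5lox/lox control, Fkbp5lox/lox ELS, Fkbp5Nex control and Fkbp5Nex ELS. *Dhcr7* encodes the reductase that turns 7-dehydrocholesterol into cholesterol. It was at 30.6 to 37.2 CPM (median 35.0) in Fkbp5lox/lox controls and 32.7 to 50.4 CPM (median 36.0) in Fkbp5lox/lox ELS mice. In Fkbp5Nex mice it was at 29.6 to 49.2 CPM (median 38.5) in controls and 31.6 to 36.6 CPM (median 35.2) after ELS. *Insig1*, whose protein retains the SCAP and SREBP complex when sterols are high, had group medians of 61.7 to 69.4 CPM. Its highest mouse was again mouse 52, at 114 CPM, followed by mouse 56 at 87.2 CPM and mouse 72 at 80.3 CPM.

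The same few animals held the highest levels of most of these genes. Mouse 52 had the highest level of all 24 mice for 6 of the 8 genes and was among the 3 highest for all 8. Mouse 56 was highest for the other 2, *Lss* and *Dhcr7*, and among the 3 highest for all 8, and mouse 72 was among the 3 highest for 7. Of all tested genes, 27.6% had mouse 52 among the 3 highest mice, 11% mouse 56 and 12% mouse 72. Against the median of the other mice of its group (mice 56 and 72 left out of each other's comparison), the median member was 1.57-fold higher in mouse 52, 1.51-fold in mouse 56 and 1.37-fold in mouse 72. The median of all tested genes was 1.005-fold in mouse 52, 0.998-fold in mouse 56 and 0.999-fold in mouse 72. Larger folds than that of the median member were seen in 3.92%, 3.79% and 6.33% of all tested genes, respectively. The other enzymes of the pathway had medians of 1.52-fold, 1.23-fold and 1.21-fold in the same mice. Mouse 52 also had the fewest detected genes of all libraries, 22868 against a median of 23391, while its total and those of mice 56 and 72 lay within the range of the rest. Mouse 68 of the Fkbp5lox/lox ELS group had almost as few, 22873, and all 8 members lay below the group mean in it. The part of the low number of detected genes in the high levels of mouse 52 was not tested.

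The comparison of ELS with control rearing in Fkbp5lox/lox mice asks whether early stress left a lasting difference in wild-type animals. All 8 genes had higher fitted levels after ELS, with a median log2 fold change of 0.18 in the model with 5 surrogate variables, which stand for variation between mice beyond the groups. None passed a false discovery rate (FDR) of 0.02 in edgeR's quasi-likelihood test, where 0% of all tested genes passed, nor in DESeq2. At an unadjusted p below 0.05, 5 of the 8 were higher in edgeR, against 2.81% of all tested genes, and 6 in DESeq2, against 2.31%. A positive log2 fold change was fitted for 51.2% of all tested genes, whose median was 0.00.

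The largest of these differences was that of *Fdps*, at 0.82 on the log2 scale (standard error, SE, 0.29). *Fdft1* differed by 0.23 (SE 0.07), *Sqle* by 0.22 (SE 0.08), *Dhcr7* by 0.19 (SE 0.06) and *Lss* by 0.15 (SE 0.07). The other 3 had values of 0.17 for *Hmgcs1* (SE 0.08), 0.16 for *Idi1* (SE 0.11) and 0.06 for *Insig1* (SE 0.10). The adjusted p was 0.938 or higher for each (edgeR quasi-likelihood test, Benjamini-Hochberg over all tested genes).

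These values moved with the model and with the mice included. Without surrogate variables the median was 0.12 and only *Fdps* stayed at an unadjusted p below 0.05 (against 1.73% of all tested genes). No member reached it in the exact two-sided permutation test of the 12 mice, whose p ran from 0.0671 for *Fdps* to 0.751 for *Insig1*. Mice 56 and 72 were picked for high levels of these genes, so that leaving them out lowers the ELS group by construction and is no test of the difference. With mice 52, 56 and 72 left out and the surrogate variables estimated anew, the median was 0.04, *Idi1*, *Lss* and *Insig1* had negative values, and only *Fdft1* kept an unadjusted p below 0.05 (against 1.93% of all tested genes). Without these mice and without surrogate variables, 6 of the 8 values were negative. Leaving out mouse 56 alone left 2 members at this threshold (against 2.55% of all tested genes). Leaving out mouse 72 left 3 (against 2.26%), as did leaving out mouse 8 of the same group (against 2.03%), which was not picked for high levels. The surrogate variables took up from 24.7% (*Lss*) to 85.8% (*Fdft1*) of the within-group variance of the members. The ranges of the rearing groups overlapped for each of the 8 genes (for 0.0925% of all tested genes they did not).

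**Figure D2:**
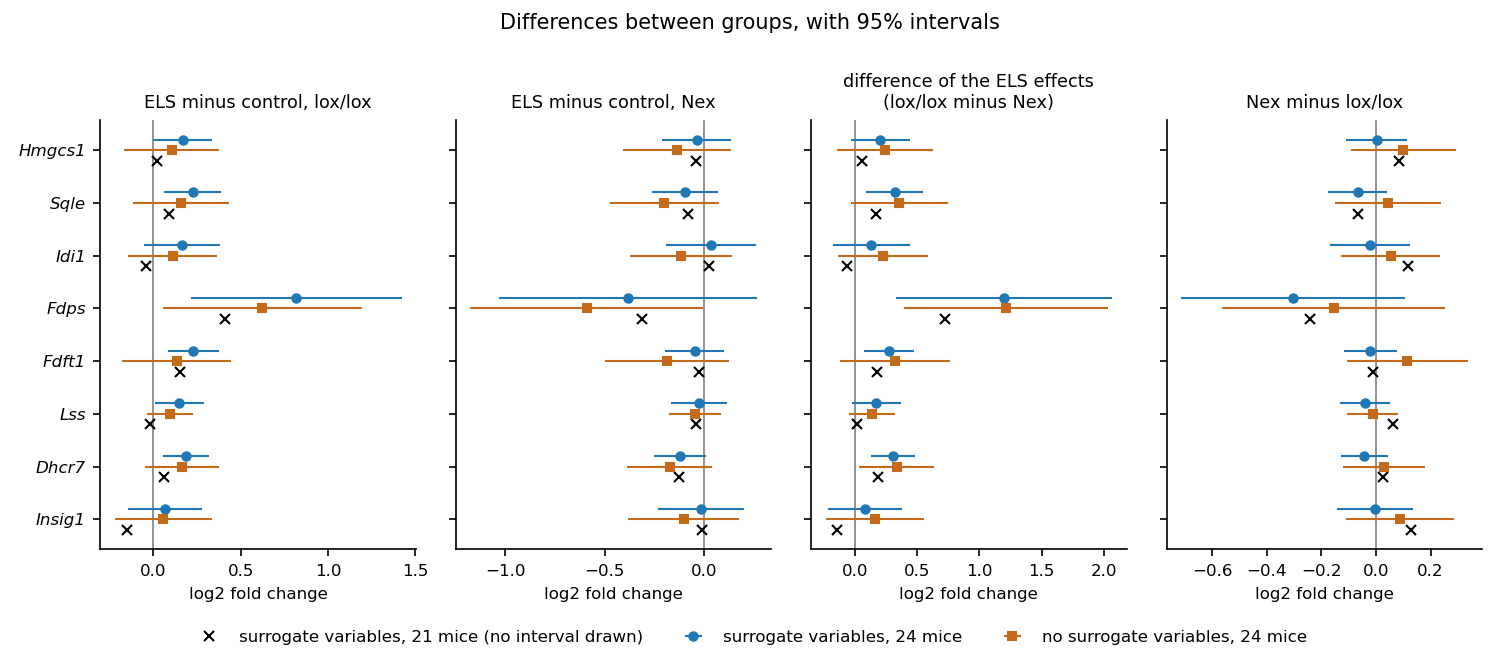
Log2 fold changes of the 8 genes in 4 comparisons, with 95% intervals, from edgeR's quasi-likelihood fit with surrogate variables (blue circles) and without them (orange squares) in 24 mice, and with them in the 21 mice other than 52, 56 and 72 (crosses, drawn without an interval); the horizontal scale differs between panels. In Fkbp5lox/lox mice the blue circles all lie above 0 with a median of 0.18, and the crosses have a median of 0.04, with those of *Idi1*, *Lss* and *Insig1* below 0.

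In Fkbp5Nex mice the same comparison gave values on the other side of 0 for 7 of the 8 genes, with a median of -0.04 on the log2 scale. Of all tested genes 52% had a positive value. No member passed the FDR of 0.02 or had an unadjusted p below 0.05 in edgeR or DESeq2. Over all tested genes 0% passed the FDR, 1.55% were higher and 1.2% lower at the unadjusted threshold. *Fdps* had the largest value, -0.38 (SE 0.31), and *Dhcr7* had -0.12 (SE 0.06). The remaining 6 genes lay between -0.09 (*Sqle*) and 0.03 (*Idi1*). Without surrogate variables all 8 were negative with a median of -0.15 (47.9% of all tested genes were positive), and *Fdps* was lower at an unadjusted p of 0.0484 (as 2.22% of all tested genes were at the 0.05 threshold). The exact permutation test gave a p of 0.0476 for *Fdps* and from 0.175 to 0.786 for the others. Without mice 52, 56 and 72, *Dhcr7* was the single gene at an unadjusted p below 0.05, at -0.13 (SE 0.05, against 1.48% of all tested genes lower at that threshold). The ranges of the rearing groups overlapped for all 8 genes (for 0.0679% of all tested genes they did not).

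The interaction asks whether the difference after ELS depended on the genotype, and is given as the difference in Fkbp5lox/lox mice minus that in Fkbp5Nex mice. It was positive for all 8 genes and for 50.1% of all tested genes, with medians of 0.24 and 0.00 on the log2 scale. None passed the FDR of 0.02 in edgeR or DESeq2, and over all tested genes 0% did. At an unadjusted p below 0.05, 4 members were higher in edgeR, against 1.95% of all tested genes, and 4 in DESeq2, against 1.41%. In edgeR they were *Fdps* at 1.2 (SE 0.42), *Sqle* at 0.32 (SE 0.11), *Dhcr7* at 0.31 (SE 0.09) and *Fdft1* at 0.27 (SE 0.10). The adjusted p was 0.999 for each in edgeR's quasi-likelihood test. Without surrogate variables, *Fdps* (1.21) and *Dhcr7* (0.34) remained at that threshold, as did 1.4% of all tested genes in this direction. The same 2 genes had an exact permutation p below 0.05, at 0.00582 for *Fdps* and 0.0498 for *Dhcr7*, unadjusted for the 32 such tests of 8 genes in 4 comparisons. Rearing labels were permuted within each genotype. The p is thus exact for no ELS difference in either genotype, not for equal differences in both. Without mice 52, 56 and 72 the median was 0.11, *Idi1* and *Insig1* were negative, and *Dhcr7* alone remained at an unadjusted p below 0.05 with 0.19 (SE 0.08, against 1.51% of all tested genes). The choice of these mice lowers the interaction by construction too. Leaving out mouse 12 of the Fkbp5Nex controls left 2 members at this threshold (against 1.69% of all tested genes), as did leaving out mouse 74 of the Fkbp5lox/lox controls (against 1.45%).

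Between genotypes, over both rearing conditions, the fitted differences of 7 of the 8 genes were small. The log2 fold change of Fkbp5Nex against Fkbp5lox/lox mice had a median of -0.03 and lay between -0.07 and 0.00 for all members but *Fdps*, which had -0.30 (SE 0.20). None passed the FDR of 0.02 or had an unadjusted p below 0.05 in edgeR or DESeq2. In edgeR 0.136% of all tested genes passed, 49% had a positive value, and 4.89% were higher and 6.51% lower at the unadjusted threshold. The 95% intervals of the 7 other genes stayed within -0.18 and 0.14. The direction depended on the model, since 6 of 8 were positive without surrogate variables (51% of all tested genes), with a median of 0.05. The size of the values depended on mouse 12 of the Fkbp5Nex controls. Without this mouse all 8 genes were negative with a median of -0.18, and 6 were lower at an unadjusted p below 0.05 (against 3.63% of all tested genes). Without mouse 52 of the same group 3 members were lower at that threshold (against 4.89% of all tested genes). A single one was without mouse 30 (against 5.27%) or mouse 66 (against 6.17%).

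While the groups differed little, the genes varied together from mouse to mouse. Correlations were taken on the deviations of log2 CPM from the 4 group means in 24 mice and are given as a description. The points share library, depth and scaling. Over the 28 pairs of members the median Pearson r was 0.71 (range 0.44 to 0.95), and the median Spearman rho was 0.61. Of these pairs 96.4% were over 0.5, against 5.44% of all pairs of tested genes, whose median was 0.00. *Hmgcs1* and *Sqle* were the closest pair (r = 0.95), followed by *Hmgcs1* with *Fdft1* (0.94) and *Sqle* with *Fdft1* (0.93). *Hmgcs1* had the highest median r with the other members (0.88), and *Fdps* (0.55) and *Lss* (0.56) had the lowest. Of the 24 mice, 8 had all members on the same side of their group mean.

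The 3 mice named above were picked because most members were high in them together, so that leaving them out lowers these correlations by construction. Without mice 52, 56 and 72 the median r of the pairs was 0.36, and 35.7% of pairs were over 0.5, against 5.92% of all pairs of tested genes. In the remaining 21 mice *Hmgcs1* had r = 0.87 with *Fdft1*, 0.85 with *Sqle*, 0.72 with *Dhcr7*, 0.64 with *Insig1* and 0.61 with *Idi1*. *Lss* and *Fdps* had r between -0.14 and 0.11 with these 6 genes and r = 0.44 with each other. Within single groups of 6 mice, the median r over pairs was 0.94 in Fkbp5lox/lox ELS mice, 0.77 in Fkbp5Nex controls, 0.57 in Fkbp5Nex ELS mice and 0.46 in Fkbp5lox/lox controls. The latter 2 groups hold none of the 3 mice.

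**Figure D3:**
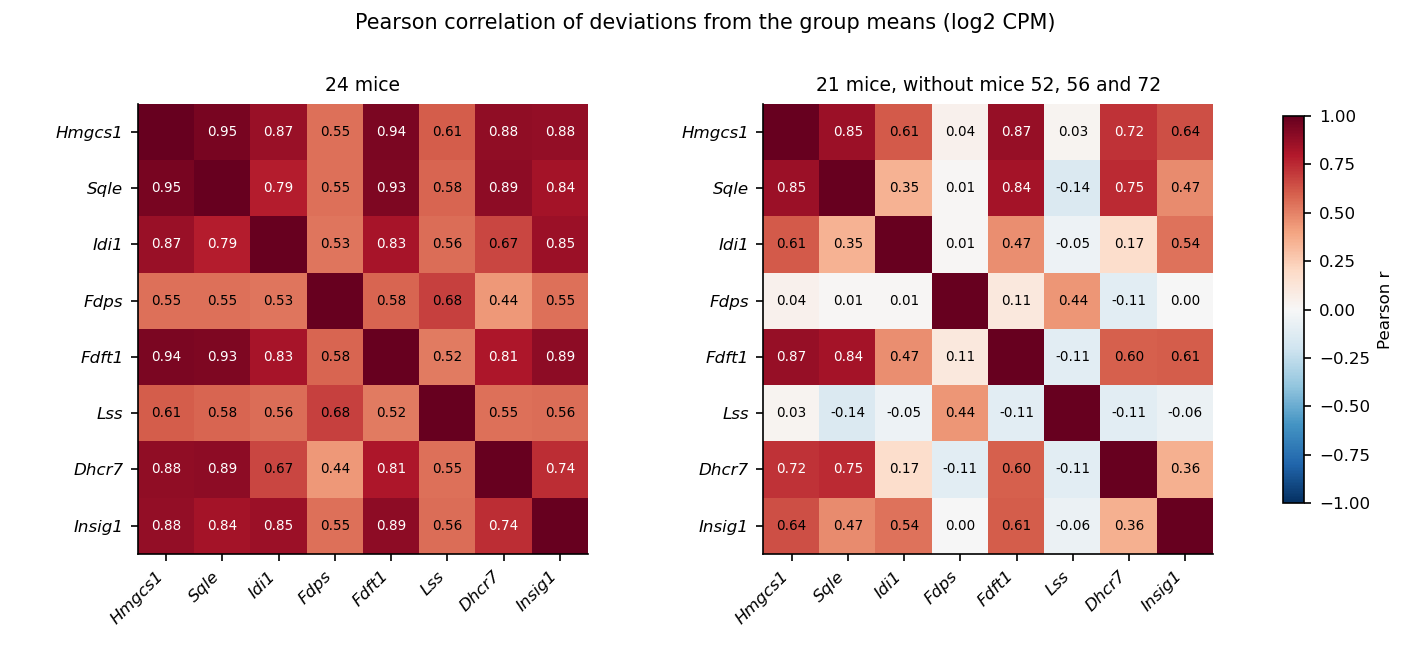
Pearson r of each pair of the 8 genes, from deviations of log2 CPM from the group means, in 24 mice (left) and in the 21 mice other than 52, 56 and 72 (right); colour runs from -1 (blue) to 1 (red). All pairs are positive on the left, with a median of 0.71, while on the right the rows of *Fdps* and *Lss* fade and the median is 0.36.

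The rest of the pathway followed the same pattern. For each gene outside the 8, r was taken with the mean z-score of the 8 genes, again on deviations from group means. Of 15 other enzymes of the mevalonate and sterol pathway, 11 had r over 0.5 and the median was 0.72, against 7.62% of all tested genes and a median of -0.01. The 4 that did not were *Ebp* (0.30), *Tm7sf2* (0.23), *Lbr* (-0.12) and *Ggps1* (-0.22). *Ggps1* makes geranylgeranyl diphosphate on a branch away from sterols, and *Tm7sf2* and *Lbr* encode reductases for the same sterol bond. Among all tested genes, the 10 with the highest r included 6 of these enzymes, among them *Msmo1* (0.95), *Mvd* (0.94), *Acat2* (0.92), *Cyp51* (0.85) and *Nsdhl* (0.84). The 4 that are not enzymes of the pathway were *Stard4* (0.88), a carrier of cholesterol between membranes, the tubulin genes *Tubb2a* (0.86) and *Tuba1a* (0.83), and the noncoding *Mir22hg* (0.85). The 3 lowest were *Adam1a* (-0.92), *Nfxl1* (-0.85) and *Baz1b* (-0.83). In the 21 mice without 52, 56 and 72, *Msmo1*, *Stard4* and *Mvd* had r of 0.89, 0.84 and 0.83, and the median of the 15 enzymes was 0.54. The 4 enzymes with low r moved in different directions there, with *Ggps1* at 0.62, *Lbr* at 0.19, *Tm7sf2* at -0.38 and *Ebp* at -0.41.

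Genes that sense, import, export or use sterols were more mixed. Of 12 genes of SREBP regulation, *Srebf2*, which encodes SREBP2 itself, had r = 0.71 and the ubiquitin ligase gene *Rnf139* 0.60, while *Mbtps1* (-0.57), a protease that activates SREBPs, and *Sp1* (-0.56) were on the other side, and the median was -0.02. Among 11 tested genes of uptake and transport, 2 had r over 0.5, among them *Stard4*, the median was 0.12 and *Vldlr* was at -0.61. Without mice 52, 56 and 72, *Srebf2* was at 0.33. None of the 11 tested genes of efflux and turnover was over 0.5, and *Soat1* (-0.58), which esterifies cholesterol, and the exporter gene *Abca1* (-0.53) were below -0.5. Of all tested genes outside the 8, 7.62% were over 0.5 and 9.26% below -0.5. Without mice 52, 56 and 72, *Soat1* was at -0.33, *Abca1* at -0.35, *Mbtps1* at -0.12, *Sp1* at -0.23 and *Vldlr* at -0.50. Of 11 genes of fatty acid synthesis, 4 were over 0.5, led by *Me1* (0.66), *Scd2* (0.64) and *Acly* (0.62), with a median of 0.44. Without the same 3 mice the median of this list was 0.19, with *Me1* at 0.56, *Scd2* at 0.24 and *Acly* at 0.54, and the medians were -0.10 for SREBP regulation, -0.07 for uptake and transport and -0.33 for efflux and turnover.

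**Figure D4:**
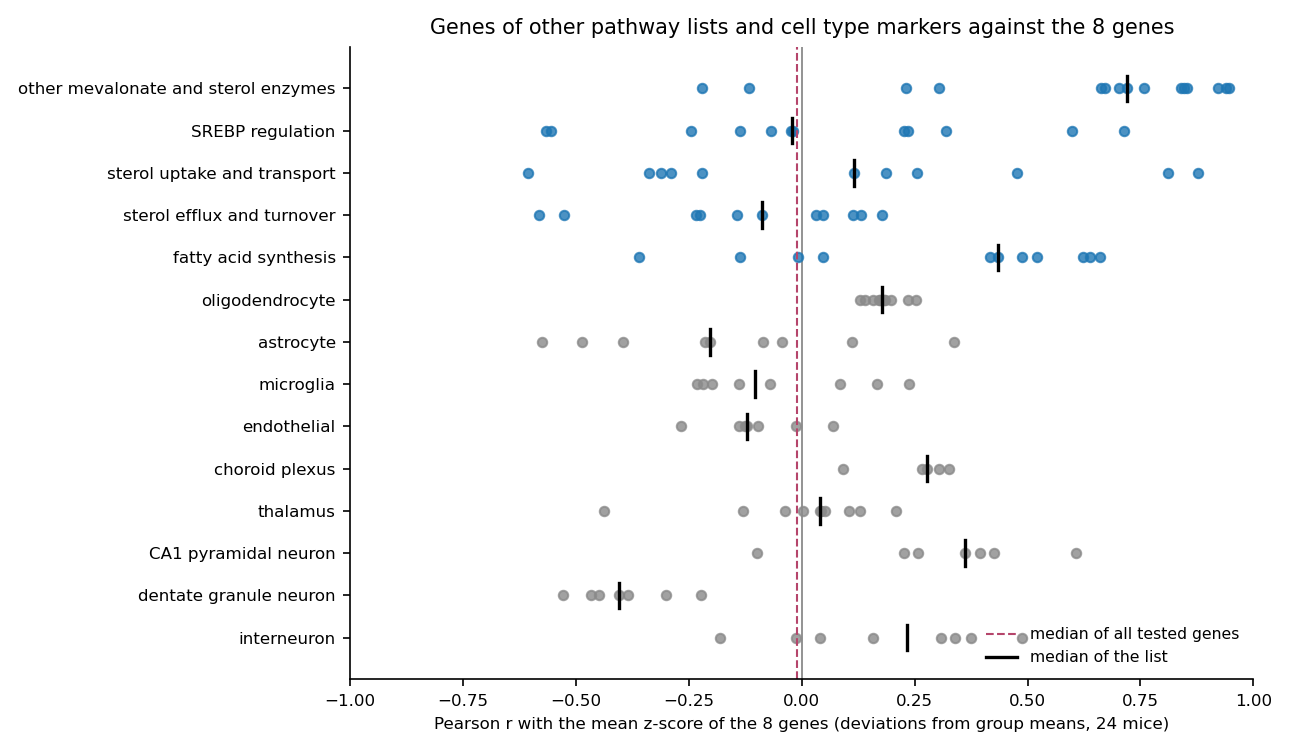
Pearson r of single genes (points) with the mean z-score of the 8 cholesterol synthesis genes, from deviations from group means in 24 mice; rows are lists of pathway genes (blue) and cell type markers (grey), black bars are list medians and the dashed line is the median of all tested genes. The other enzymes of the pathway lie to the right, with a median of 0.72, and the oligodendrocyte markers cluster near 0.18.

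The other lists were also compared between groups. At an FDR of 0.02, no gene of the 5 lists passed in any of the 4 comparisons, in edgeR or in DESeq2. Of all tested genes, 0.136% passed between genotypes in edgeR, and 0% in both ELS comparisons and in the interaction. In Fkbp5lox/lox mice after ELS, the 15 other enzymes had a median log2 fold change of 0.11. Of the 15, 11 had positive values, against 51.2% of all tested genes, and 2 were higher at an unadjusted p below 0.05, against 2.81%. Among the 2 was *Nsdhl* (0.25, SE 0.10), which encodes a dehydrogenase that acts in the removal of methyl groups from sterols. *Stard4* had 0.24 (SE 0.08), *Srebf2* 0.15 (SE 0.06), *Acly* 0.09 (SE 0.04) and *Insig2* -0.11 (SE 0.04), and all of these had an unadjusted p below 0.05. At that threshold 2.81% of all tested genes were higher, and 352 of the 16209 were lower. Without surrogate variables no gene of the 5 lists reached it, while 1.73% of all tested genes were higher. *Apoe*, the main lipoprotein of brain cholesterol transport, had the smallest p of the efflux list, at -0.12 (SE 0.07).

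In Fkbp5Nex mice no gene of the 5 lists reached an unadjusted p below 0.05 after ELS in the fit with surrogate variables. Of all tested genes, 1.55% were higher and 1.2% lower at that threshold. The smallest p of each list belonged to *Pmvk* (-0.06, SE 0.07), *Erlin2* (0.08, SE 0.04), *Stard4* (-0.11, SE 0.08), *Soat1* (-0.10, SE 0.05) and *Acacb* (0.14, SE 0.13). Without surrogate variables, *Soat1* (-0.13) and *Nr1h3* (-0.26) were lower at that threshold, as were 2.22% of all tested genes. For the interaction, the other enzymes had a median of 0.15 with 12 of 15 positive, against 50.1% of all tested genes. The genes with the smallest p were *Nsdhl* (0.29, SE 0.14), *Erlin2* (-0.14, SE 0.05), *Stard4* (0.35, SE 0.11), *Nr1h3* (0.32, SE 0.17) and *Acacb* (-0.32, SE 0.18). Between genotypes, all 11 tested genes of efflux and turnover were higher in Fkbp5Nex mice in the fit, against 49% of all tested genes. Their median was 0.05, and 3 were higher at an unadjusted p below 0.05, against 4.89% of all tested genes. Without surrogate variables 8 of the 11 were higher, against 51% of all tested genes. Here *Lcat* (0.25, SE 0.08), *Tm7sf2* (0.10, SE 0.05), *Acacb* (0.28, SE 0.08), *Nfyb* (-0.16, SE 0.04) and *Scarb1* (-0.18, SE 0.04) had the smallest p of their lists. *Lcat* was at 0.04 without mouse 52, and *Tm7sf2* at 0.03 without mouse 8. The lowest adjusted p among them was 0.0926 for *Nfyb*, a subunit of NF-Y (edgeR quasi-likelihood test, Benjamini-Hochberg over all tested genes).

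Measures of tissue and library moved with the member levels to differing degrees, and their part in the shared variation was not tested. The median r with the mean z-score of the 8 genes was 0.36 for 7 CA1 pyramidal neuron markers, 0.28 for the 5 tested of 8 choroid plexus markers, 0.23 for 8 interneuron markers and 0.18 for 10 oligodendrocyte markers. It was -0.40 for 7 dentate granule neuron markers, -0.20 for 9 astrocyte markers, -0.12 for 7 endothelial markers, -0.10 for 8 microglial markers and 0.04 for 10 thalamic markers. Without mice 52, 56 and 72 these medians were -0.02 for CA1 pyramidal neuron, 0.35 for choroid plexus, -0.14 for interneuron and 0.33 for oligodendrocyte markers. They were -0.49 for dentate granule neuron, -0.39 for astrocyte, -0.39 for endothelial, -0.42 for microglial and 0.14 for thalamic markers, so that the sign turned for CA1 and interneuron markers. No marker was at 0 in every mouse. In mice 52, 56 and 72 the summed oligodendrocyte markers were at 2618, 4783 and 3655 CPM, within the range of 1544 to 6947 CPM of all mice. Their CA1 sums were 727, 759 and 666 CPM, and 727 was the highest of the Fkbp5Nex controls. Their dentate granule sums were 454, 325 and 339 CPM, and 325 was the lowest of the Fkbp5lox/lox ELS mice. In that group mouse 56 also had the highest endothelial sum (210 CPM) and mouse 72 the highest interneuron sum (957 CPM). Mouse 52 had 19.3 CPM of choroid plexus markers, the lowest of its group, against 974 and 1404 CPM in mice 56 and 72. The z-score of the members had r = 0.08 with library total and -0.23 with the number of detected genes. It had r = 0.32 with the first principal component of all genes and -0.67 with the second of the 5 surrogate variables. Across genes, r with the z-score was lower for longer genes, with medians of 0.11, 0.09, -0.04 and -0.22 in 4 equal classes from the shortest to the longest exonic length. *Lss* is in the longest class, 5 members are in the next, and *Idi1* and *Insig1* in the class below that.

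Reads of some members can be shared with other genes or left uncounted. The handling of reads that fit several places or genes, and of strand, was not given in the sources used here. In GENCODE vM21 (GRCm38), *Fdps* lies on chromosome 3 from 89093588 to 89101959, minus strand. The longer gene *Gm43738* covers most of it on the same strand and had at most 1 read per mouse. Of the 100-base stretches in *Fdps* exons, 21.4% also occur in *Gm43738* or in the processed pseudogenes *Gm3571* and *Gm5873*. *Gm3571* had 50 to 187 reads per mouse, more than *Fdps* itself, and *Gm5873* had 6 to 27. The log2 interaction of genotype and ELS was 0.00 (SE 0.21) for *Gm3571* and 0.75 (SE 0.44) for *Gm5873*, next to 1.2 (SE 0.42) for *Fdps*. The values of *Fdps* are therefore uncertain in level as well as in difference.

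The 3′ end of *Fdft1* (chromosome 14, 63145150 to 63179578, minus strand) overlaps *Ctsb* on the opposite strand, a gene with 8439 to 12320 reads per mouse. It shares 18.3% of its 100-base stretches with *Ctsb* or the pseudogene *Gm6781*, which had 1 to 10 reads. *Idi1* (chromosome 13, 8885501 to 8892451) shares 21.9% with *Gm48574*, which overlaps it on the opposite strand and was not analysed here, or with the pseudogenes *Gm13502*, which had 2 to 16 reads, and *Gm35570*, which had none. *Hmgcs1* (chromosome 13, 119690379 to 119708260) shares 8.22% and *Lss* (chromosome 10, 76531588 to 76557138) 0.548%. *Sqle* (chromosome 15, 59315077 to 59331192), *Dhcr7* (chromosome 7, 143823145 to 143848410) and *Insig1* (chromosome 5, 28071363 to 28078662) overlap no other annotated gene.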

How the data were processed

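Hippocampal mRNA of 24 female mice was sequenced, and the values deposited by the authors are whole-number read counts of each gene, not normalized. Per the labels and the submitters' processing notes, reads were aligned with HISAT2 2.0.5 and counted with featureCounts 1.5.0-p3. The genome build, annotation and strand setting were not given in the sources used here. Positions and exonic lengths come from GENCODE vM21, matched by identifier.

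A gene was tested where all 6 mice of some group had 10 or more counts. After TMM scaling, a model was fitted with edgeR 4.0.16 (quasi-likelihood test, R 4.3.3), with 4 group means and 5 surrogate variables from svaseq (sva 3.50.0), and p-values were adjusted by Benjamini-Hochberg over all tested genes at an FDR of 0.02. Standard errors follow from the F statistics. The study used DESeq2, which was an alternative here (1.42.0). Log2 CPM used a prior count of 2. Permutation tests were exact and two-sided, and with 924 divisions of 12 mice the smallest p of an ELS comparison is 0.00216. The interaction and genotype tests used 853776 divisions. Rearing labels were permuted within each genotype for the interaction, and genotype labels within each rearing condition for the genotype test. Replicates are mice, each of its own number, so no pairing across groups was made. The study assigned whole litters to ELS or control rearing and used littermates of both genotypes. Litter is not labelled, so mice of a group may share a litter, and the p-values take no account of this. No batch is labelled. In the fits with surrogate variables, estimated from the same counts, p-values measure the spread between mice that is left after these variables. In the permutation tests and the fits without surrogate variables they measure the whole spread between mice. The steps were tested on simulated data.

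Named genes are the 8 members, the gene of smallest p per list and comparison, and the 10 highest and 3 lowest correlated genes. Some genes that this rule names are not reported here. Genes named beyond these, and mice 52, 56, 72 and 12, were picked after their values were seen. The members and lists were chosen with earlier results of these data known. *Lss* exonic length (10787 bases) joins all annotated transcripts, which lowers its level per kilobase.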

Additional observations from a re-analysis of the deposited data

Results flagged for a closer look

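Of 32 combinations of gene and group, 4 held a mouse whose gap to its nearest neighbour was wide against the range of its group of 6 (Dixon's test at 95%). Chance gives about 1 in 20. Mouse 52 among the Fkbp5Nex controls stood apart for *Hmgcs1* with 448.318 CPM, for *Fdft1* with 181.192 CPM and for *Insig1* with 113.771 CPM. These 3 values come from the same library and are not independent of each other. Mouse 60 among the Fkbp5Nex ELS mice was lowest for *Hmgcs1* with 226.211 CPM.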

How the results depend on the processing

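No member passed the FDR of 0.02 in any comparison under the alternatives tried, which were DESeq2 size factors, the DESeq2 test, filterByExpr, no filter on low counts, an FDR of 0.05, no surrogate variables, only the mice compared, and leaving out each mouse. Leaving out mice 52, 56 and 72 was chosen after seeing the data, by the members' own levels, and changed no such call either. Each mouse number occurs in a single group and litter is not labelled, so that no paired analysis was possible. The limits of depth are greatest for *Fdps*, with 12 to 54 reads. The causes of the changes given here were not tested.

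The number of members at an unadjusted p below 0.05 after ELS in Fkbp5lox/lox mice was 5, against 2.81% of all tested genes higher. It was 1 without surrogate variables (against 1.73%), 1 without the 3 mice (against 1.93%) and 0 without both. In Fkbp5Nex mice it was 0, where 1.55% of all tested genes were higher and 1.2% lower. It was 1 without surrogate variables (against 2.22% lower), 1 without the 3 mice (against 1.48% lower) and 1 with only the mice compared. For the interaction it was 4, against 1.95% of all tested genes higher. It was 2 without surrogate variables (against 1.4%), 1 without the 3 mice (against 1.51%) and 0 without both. Shares of all tested genes are not given for the fits without both or with only the mice compared. Leaving out each mouse gave 2 to 6 members in Fkbp5lox/lox mice, against 2.03% to 4.1% of all tested genes higher. In Fkbp5Nex mice it gave 0 to 1, against 1.07% to 1.5% lower. It gave 2 to 5 for the interaction (against 1.45% to 2.56% higher) and 0 to 6 between genotypes (against 3.63% to 7.5% lower). The median r over pairs was 0.71, 0.66 to 0.75 without each mouse and 0.36 without the 3. Over all genes, 22 passed between genotypes, against 3 without surrogate variables, 66 by DESeq2, 47 at an FDR of 0.05, 4 without the 3 mice, 3 without both, and 2 (without mouse 12) to 35 (without mouse 54) on leaving out each mouse. After ELS in Fkbp5lox/lox mice 0 genes passed, and 1 by DESeq2.

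The direction of some log2 fold changes turned. Without surrogate variables these were -0.12 for *Idi1* and -0.037 for *Acacb* after ELS in Fkbp5Nex mice, and 0.11 for *Fdft1*, 0.089 for *Insig1*, 0.054 for *Idi1*, 0.045 for *Sqle* and 0.029 for *Dhcr7* between genotypes. Differences of plain means in the permutation test were -0.097 for *Idi1* after ELS in Fkbp5Nex mice, and 0.10 for *Fdft1*, 0.081 for *Insig1*, 0.049 for *Idi1*, 0.046 for *Sqle* and 0.030 for *Dhcr7* between genotypes. After ELS in Fkbp5Nex mice, *Insig1* was at 0.0065 with filterByExpr and 0.020 with no filter. With only the mice compared, values were 0.0071 for *Insig1*, -0.031 for *Idi1* and -0.12 for *Acacb*.

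Without the 3 mice, values after ELS in Fkbp5lox/lox mice were -0.041 for *Idi1*, -0.15 for *Insig1* and -0.022 for *Lss*. The interaction was -0.066 for *Idi1* and -0.14 for *Insig1*, and values between genotypes were 0.027 for *Dhcr7*, 0.12 for *Idi1*, 0.13 for *Insig1*, 0.061 for *Lss* and -0.035 for *Lcat*. Without the 3 mice and surrogate variables, values after ELS in Fkbp5lox/lox mice were -0.052 for *Fdft1*, -0.093 for *Hmgcs1*, -0.062 for *Idi1*, -0.12 for *Insig1*, -0.015 for *Lss*, -0.061 for *Sqle* and -0.050 for *Stard4*. In Fkbp5Nex mice they were 0.020 for *Fdft1*, 0.0020 for *Hmgcs1*, 0.069 for *Insig1*, -0.13 for *Acacb* and -0.000264 for *Erlin2*. The interaction was -0.071 for *Fdft1*, -0.095 for *Hmgcs1*, -0.079 for *Idi1* and -0.19 for *Insig1*, and values between genotypes were 0.068 for *Dhcr7*, 0.10 for *Fdft1*, 0.074 for *Idi1*, 0.095 for *Insig1*, 0.031 for *Lss* and 0.088 for *Sqle*.

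Leaving out each mouse turned the direction of some values, with these ranges. After ELS in Fkbp5Nex mice they were -0.076 to 0.016 for *Fdft1*, -0.091 to 0.043 for *Hmgcs1*, -0.019 to 0.13 for *Idi1*, -0.078 to 0.058 for *Insig1* and -0.056 to 0.013 for *Lss*. Between genotypes they were -0.16 to 0.044 for *Fdft1*, -0.19 to 0.060 for *Hmgcs1*, -0.23 to 0.039 for *Idi1* and -0.14 to 0.064 for *Insig1*. The interaction ranged over -0.025 to 0.20 for *Idi1* and -0.046 to 0.15 for *Insig1*, and *Insig1* was at -0.0047 to 0.17 after ELS in Fkbp5lox/lox mice.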
